A study of Rattus norvegicus with 6 samples.

Results

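Insulin and IGF receptor signalling was described by 10 genes, the insulin and IGF receptors Insr, Igf1r and Igf2r, the receptor substrates Irs1 and Irs2, the PI3-kinase subunits Pik3ca and Pik3r1, the kinases Akt1 and Akt2, and the transcription factor Foxo1. They were chosen by name and not by a cut on their values, though earlier results of these data were known. Every probe set that the platform annotation assigns to one of these symbols alone was taken. This gave 25 probe sets of the 20826 with a single symbol, and 10 genes of 14217. The RNA came from 832/13 INS-1 cells, a clonal rat insulinoma line used as a β-cell model, which was kept in medium with 11 mM glucose and serum and used between passages 7 and 25. Cells of 3 replicates were electroporated with an siRNA against COUP-TFII (COUP-TFII depleted cells) and cells of 3 replicates with a scrambled siRNA (control cells), and both were cultured for 48 h. The labels name no insulin, IGF or incretin added to either group, and the cells make insulin themselves. The labels give the same passage range for all 6 samples and not the passage of each one.

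Insulin and the IGFs bind receptor tyrosine kinases at the cell surface, which phosphorylate IRS proteins. These recruit PI3-kinase, whose lipid product brings Akt to the membrane, and active Akt phosphorylates FoxO1 and keeps it out of the nucleus. In β-cells IRS2 and this cascade are known for their part in growth and survival, and FoxO1 is known to restrain both when insulin signalling is low. Igf2r is the exception in the family, since it carries mannose 6-phosphate tagged enzymes to lysosomes, takes up IGF2 for degradation and has no kinase. A known feedback runs from FoxO1 back to the top of the cascade, because Insr and Irs2 are target genes of FoxO factors. The question behind the arrays was which RNAs of a β-cell line change when COUP-TFII, a nuclear receptor, is depleted.

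The 250 bases before the start of Insr and of Igf1r are shown because the former lies at the end of that feedback and the latter gave the widest differences between replicates among the receptors. Both are RefSeq sequences of the rat build GRCr8, written 5′ to 3′ on the strand of the gene, with a match to the FoxO core GTAAACA (either strand) or to AGGTCA, the hexamer that nuclear receptors such as COUP-TFII bind in pairs (either strand), in capitals. The Insr window is chr12:6128804-6129053 on the minus strand, and the Igf1r window is chr1:130959747-130959996 on the plus strand.
Insr: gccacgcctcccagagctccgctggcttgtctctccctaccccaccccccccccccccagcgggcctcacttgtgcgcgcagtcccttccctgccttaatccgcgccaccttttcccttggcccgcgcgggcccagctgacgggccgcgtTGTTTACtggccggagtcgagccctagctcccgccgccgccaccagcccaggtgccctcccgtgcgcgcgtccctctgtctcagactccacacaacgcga
Igf1r: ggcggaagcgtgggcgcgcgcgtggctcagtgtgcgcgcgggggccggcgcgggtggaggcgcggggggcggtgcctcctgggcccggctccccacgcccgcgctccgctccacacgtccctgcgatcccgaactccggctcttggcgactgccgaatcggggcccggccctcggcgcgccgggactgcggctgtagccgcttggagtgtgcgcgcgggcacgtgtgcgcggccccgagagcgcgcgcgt
The FoxO core lies on the opposite strand, 100 bases before the start of Insr, and neither motif is in the Igf1r window, which is 79.6% G and C. Of the 9 genes with a window in the table, 2 held the FoxO core (Insr and Pik3ca) and 1 held AGGTCA (Akt1), against 3.21% and 14.1% of all 33469 windows of this length. Irs2 has no entry there.

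Each transcript is read by 1 or more probe sets, groups of short oligonucleotides whose brightness the authors summarised with MAS5 into a linear intensity, here called signal. limma (two-sided, unpaired) was fitted to log2 signal of all 31042 non-control probe sets, and p values were adjusted over all of them. Signals of different probe sets are not compared with each other. The highest signal of the 27 control probe sets for Bacillus transcripts, 20.7, served as a scale for background. Same-numbered arrays of both groups varied together, so a second fit carried the replicate number as a block. Nr2f2, which encodes COUP-TFII, read 47.0, 27.7 and 23.8 in COUP-TFII depleted cells, in the order of the replicate numbers, against 182, 235 and 179 in control cells on its brightest probe set 1389554_at. The adjusted p from limma was 0.404 unpaired and 0.0185 with the block. All 7 measured β-cell markers were above background on all arrays, while all 5 acinar, 4 fibroblast and 2 delta cell markers were dim, with both group means at or below background. The duct marker Krt7, the endothelial marker Kdr and the leukocyte marker Cd68 were above it on all or nearly all arrays, while Krt19, Pecam1 and Ptprc of the same cell types were dim. Ppy of PP cells lay at the background level, from 20.1 to 28.8. Also above it was the glucagon gene Gcg of α-cells, which followed the replicate number with 8056, 4789 and 817 in COUP-TFII depleted cells and 6313, 3397 and 394 in control cells, while the other measured α-cell marker, Irx2, was dim. As in any bulk sample, a lower share of cells with a transcript and less of it per cell cannot be told apart. Nothing in the labels says whether replicates came from separate electroporations beyond calling them biological, so p values measure the spread between these samples.

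COUP-TFII depletion left no member past the adjusted threshold. With limma 0 of the 25 probe sets had an adjusted p under 0.05, in the unpaired fit or with the replicate block, against 0% and 0.0161% of all probe sets. At an unadjusted p up to 0.05 the unpaired fit gave 0 of the 25, against 2.31% of all (0.973% higher and 1.34% lower after the COUP-TFII siRNA). With the block 1 of 25, a Pik3ca probe set, was at an unadjusted p up to 0.05, which is 4% against 6.23% of all probe sets. For none of the 25 did the groups separate without overlap, against 6.74% of all probe sets (3.25% higher and 3.49% lower). The signal differed in the same direction in all 3 same-numbered pairs for 4 of 25 (16%), against 27.9% of all. These counts take signals as deposited, with no tolerance, and 1 of the 4 is Irs1, whose first pair read 0.999 and 1.00, far below background. Of the 25, 19 were above background on all 6 arrays, and these cover 9 of the 10 genes, all except Irs1. Of these 19, 3 (15.8%) kept 1 direction in all pairs, against 30.2% of the probe sets above background. The log2 fold changes of the 19 ran from -0.23 to 0.52 with a median of 0.05, beside a median of 0.0030 for all 15572 probe sets above background on all arrays. A p value that misses the threshold does not show that levels were equal, so the intervals matter here. For 18 of the 19 the 95% interval of the log2 fold change lay within 1 unit on either side of 0, and Pik3r1 was the exception. Each such interval, taken singly, leaves out a change of 2-fold or more in signal. The intervals have no joint 95% level, and the lowest bound, that of Pik3ca 1396411_at, was -0.97.

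**Figure D1:**
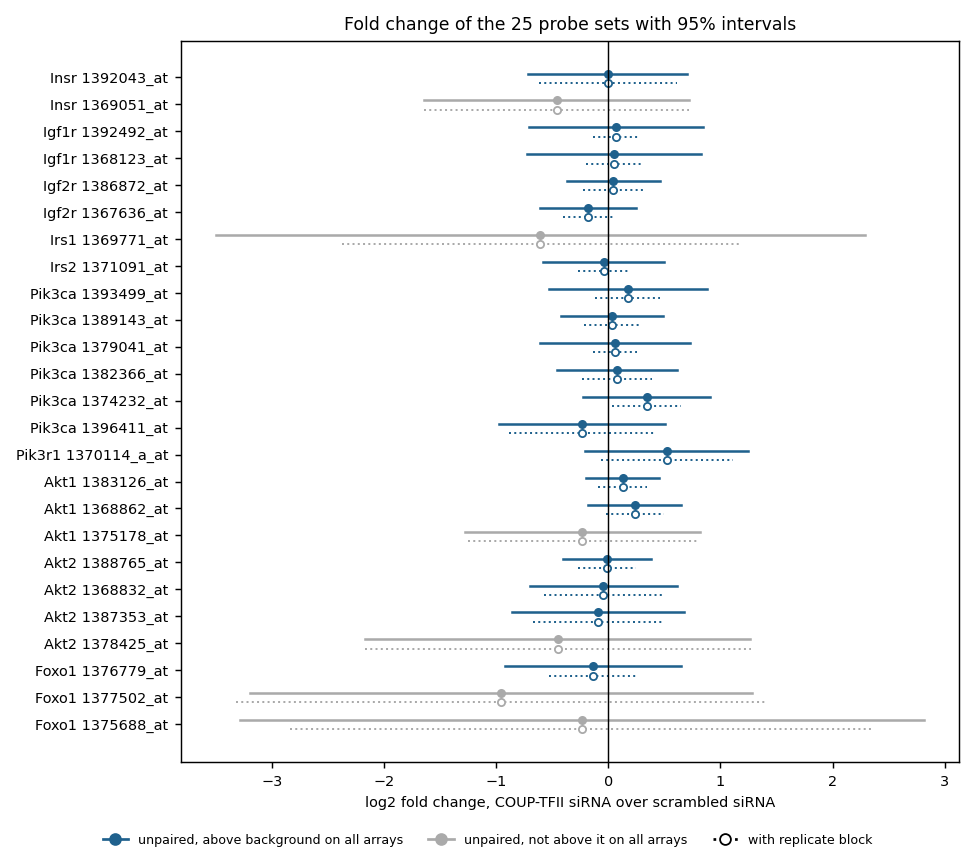
Difference in log2 signal, COUP-TFII depleted minus control, for all 25 probe sets, with 95% intervals from limma over 3 arrays a group (filled points and solid lines, unpaired; open points and dotted lines, with the replicate block). Blue marks the 19 probe sets above the highest Bacillus control signal on all 6 arrays and grey the other 6, and 1 interval, that of Pik3ca 1374232_at with the block, lies wholly above 0.

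Among the receptors, Insr encodes the insulin receptor and gave a low signal, above background on 1 of its 2 probe sets. Its probe set 1392043_at gave 47.5, 40.9 and 40.8 in COUP-TFII depleted cells (replicates 1, 2 and 3, the order used throughout) and 46.8, 49.9 and 34.3 in control cells. The control values span those of the depleted cells, and the log2 fold change was -0.0042 with a 95% interval from -0.71 to 0.71. The dimmer Insr 1369051_at gave 14.7, 10.6 and 25.8 against 22.9, 22.4 and 20.5, with values below background in both groups and a log2 fold change of -0.46 (standard error 0.52).

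Igf1r, the gene for the IGF-1 receptor, showed a large difference between replicates that both siRNAs shared. Probe set 1392492_at read 921, 395 and 500 in COUP-TFII depleted cells and 812, 421 and 462 in control cells. Replicate 1 was 2.06 times the mean of the other 2 arrays in COUP-TFII depleted cells and 1.84 times in control cells. The log2 fold change between the siRNAs was 0.07 (standard error 0.34). The second probe set 1368123_at read 272, 137 and 165 against 285, 134 and 145, again highest in replicate 1 of both groups and lowest in replicate 2. Its log2 fold change was 0.05 with an interval from -0.73 to 0.83, which narrowed to -0.20 to 0.30 with the replicate block. Here the block took out the difference between replicates and left little between siRNAs. Gcg, which varied more, was also highest in replicate 1 of both groups but lowest in replicate 3, so the orders were not the same.

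Igf2r, the cation-independent mannose 6-phosphate receptor, read 607, 459 and 739 in COUP-TFII depleted cells and 611, 542 and 564 in control cells on 1386872_at. The depleted cells span the control values, with a log2 fold change of 0.05 (interval -0.37 to 0.46). Igf2r 1367636_at read 418, 279 and 391 against 461, 364 and 397. Each same-numbered pair (3 of 3) was lower after the COUP-TFII siRNA, by 0.14, 0.38 and 0.02 on the log2 scale, and its log2 fold change of -0.18 (standard error 0.19) had an adjusted p of 0.803 with the block in limma. The direction of the other probe set was the opposite, so the 2 probe sets of Igf2r do not give a common direction.

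**Figure D2:**
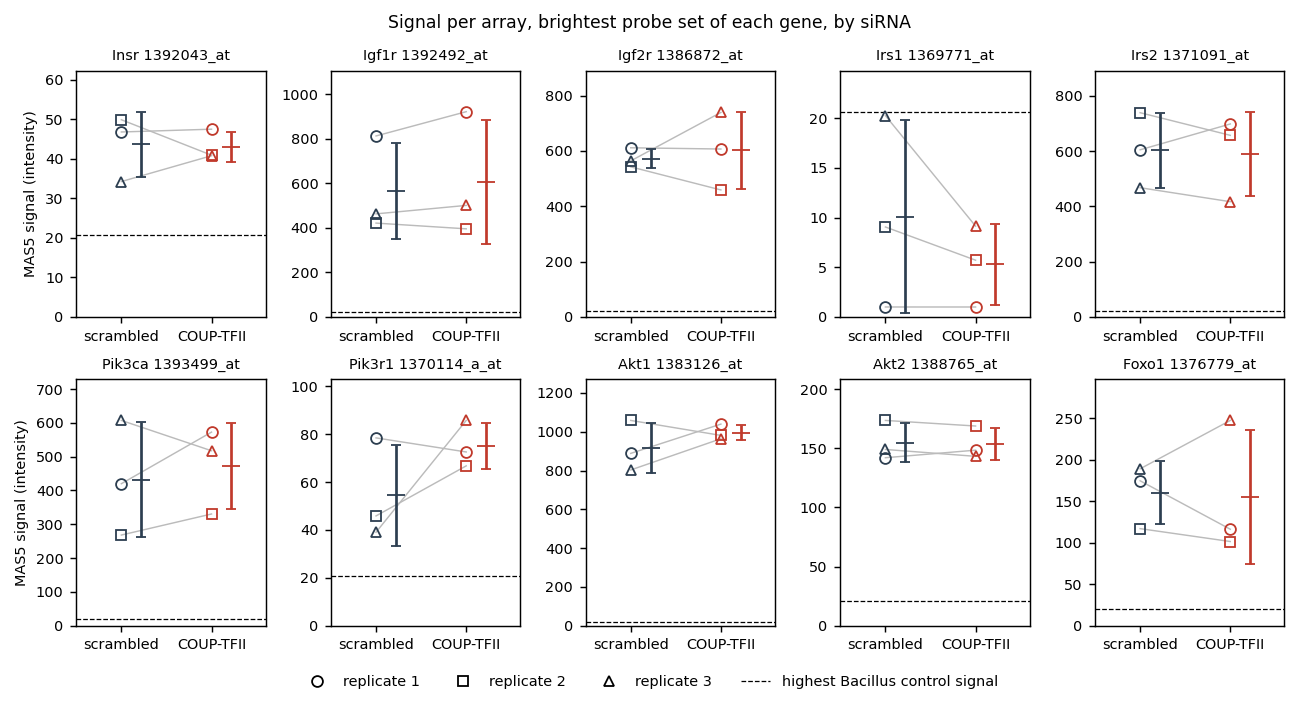
Signal per array (MAS5 intensity, linear axes from 0) of the brightest probe set of each gene after scrambled or COUP-TFII siRNA. Symbols mark the replicate number, grey lines join same-numbered arrays, bars are mean ± SD (n = 3) and a dashed line is drawn at the Bacillus level of 20.7; the groups overlap in every panel, and Irs1 lies below the line on all 6 arrays.

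Of the receptor substrates, Irs2 was measured well and Irs1 was not. Irs2, the main IRS protein of β-cells, read 699, 657 and 417 in COUP-TFII depleted cells and 605, 739 and 468 in control cells on its single probe set 1371091_at. In each group replicate 3 was lowest, at 0.615 and 0.696 times the mean of the other 2 arrays. The mean was 591 ± 152 (SD, n = 3) against 604 ± 136 (SD, n = 3). The difference of -0.04 on the log2 scale had an interval from -0.58 to 0.50 (-0.27 to 0.18 with the block). The single probe set of Irs1, 1369771_at, read 0.999, 5.71 and 9.14 against 1.00, 9.06 and 20.3. All 6 values lie below the Bacillus level, so the array gives no level for Irs1 beyond that bound, and its log2 fold change of -0.60 (standard error 1.27) was not readable.

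Pik3ca encodes the catalytic subunit p110α of PI3-kinase and is covered by 6 probe sets, more than any other member. The probe set with the lowest blocked p of the 25, 1374232_at, read 164, 118 and 177 in COUP-TFII depleted cells and 152, 91.9 and 120 in control cells. It was higher in 3 of 3 same-numbered pairs, by 0.11, 0.35 and 0.57 on the log2 scale. On average it was 0.34 higher on the log2 scale (standard error 0.25, adjusted p = 1 in limma), and with the block the interval was 0.03 to 0.65 and the adjusted p 0.797. Probe set 1379041_at read 438, 253 and 454 against 409, 240 and 452 and was also higher in 3 of 3 pairs, but by no more than 0.10. The others gave log2 fold changes of 0.17 for 1393499_at, 0.08 for 1382366_at, 0.03 for 1389143_at and -0.23 for the dimmest, 1396411_at. In 5 of the 6, all but 1396411_at, the replicate 2 array was lowest in both groups, for example 1393499_at with 573, 330 and 518 against 420, 268 and 607. The same 5 probe sets had a log2 fold change above 0.

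Pik3r1, the regulatory subunit p85α that holds p110 to IRS proteins, had the largest log2 fold change of the 19 probe sets above background. Its 1370114_a_at read 72.6, 66.8 and 85.7 in COUP-TFII depleted cells and 78.5, 45.8 and 39.0 in control cells. The replicate 1 control array lay among the depleted arrays, so the groups overlapped, and the 2 other control arrays lay below all depleted arrays. The same-numbered pairs differed by -0.11, 0.54 and 1.14 on the log2 scale. The mean was 75.0 ± 9.73 (SD, n = 3) against 54.4 ± 21.1 (SD, n = 3). This is 0.52 on the log2 scale (standard error 0.32, interval -0.21 to 1.25, adjusted p = 1 from limma). With the replicate block in limma the interval was -0.07 to 1.11 and the adjusted p 0.801. Two-sided exact permutation over the 6 arrays gave p = 0.3, where the smallest p possible is 0.1. With 1 array left out the log2 fold change ran from 0.32 without scrambled siRNA replicate 3 to 0.82 without scrambled siRNA replicate 1.

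Akt1 and Akt2 encode the kinases at the centre of the cascade. Akt1 1383126_at had the narrowest interval of all members in the unpaired fit and read 1040, 981 and 964 in COUP-TFII depleted cells and 888, 1058 and 803 in control cells. The log2 fold change was 0.13 with an interval from -0.20 to 0.45. Akt1 1368862_at read 299, 215 and 313 against 251, 215 and 227, a log2 fold change of 0.24 (standard error 0.18), while the third probe set, 1375178_at, lay at background with 17.5 to 33.1. Akt2, the isoform best known from insulin-stimulated glucose uptake, read 148, 169 and 143 against 142, 174 and 149 on 1388765_at. These 6 values lie close together, replicate 2 was highest in both groups, and the log2 fold change was -0.01 with an interval from -0.40 to 0.38. Akt2 1368832_at and 1387353_at were dimmer, from 36.3 to 70.0, with log2 fold changes of -0.05 and -0.09, and 1378425_at read between 3.55 and 14.2, below background.

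Foxo1, the transcription factor that Akt holds out of the nucleus, was above background on 1 of its 3 probe sets. That probe set, 1376779_at, read 116, 101 and 248 in COUP-TFII depleted cells and 175, 117 and 189 in control cells. Replicate 3 was highest and replicate 2 lowest in each group, and the log2 fold change of -0.14 (standard error 0.35) went lower in the first 2 pairs and higher in the third. It ran from -0.53 without COUP-TFII siRNA replicate 3 to 0.11 without COUP-TFII siRNA replicate 2. Foxo1 1377502_at and 1375688_at read at most 19.6, below background on all arrays.

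The replicate number, and not the siRNA, went with most of the spread of these genes, as it did over all probe sets above background. For each probe set the sum of squares of log2 signal over the 6 arrays was divided into parts for siRNA, replicate number and the rest. Of the 5 degrees of freedom, replicate number has 2 and siRNA 1. In the 19 probe sets above background the replicate part had a median of 72.6% and the siRNA part 2.05%, against 68.4% and 6.70% over all 15572 such probe sets. The replicate part exceeded the siRNA part in 18 of the 19 (94.7%), against 86% of all such probe sets, Pik3r1 being the exception with 22.7% against 39.6%. It was 98.0% and 98.3% for the Igf1r probe sets, 91.0% for Irs2 and 99.2% for Pik3ca 1379041_at. A limma F test of the replicate number, chosen after these values were seen, passed an adjusted p of 0.05 for 6 of the 19 (31.6%), against 19.7% of all probe sets above background. These 6 were both Igf1r probe sets (adjusted p = 0.000678 and 0.00267), Irs2 (0.0144), Pik3ca 1379041_at and 1393499_at (0.00149 and 0.0111) and Foxo1 1376779_at (0.0412). Members that share a gene share their target, and the 6 probe sets stand for 4 genes.

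**Figure D3:**
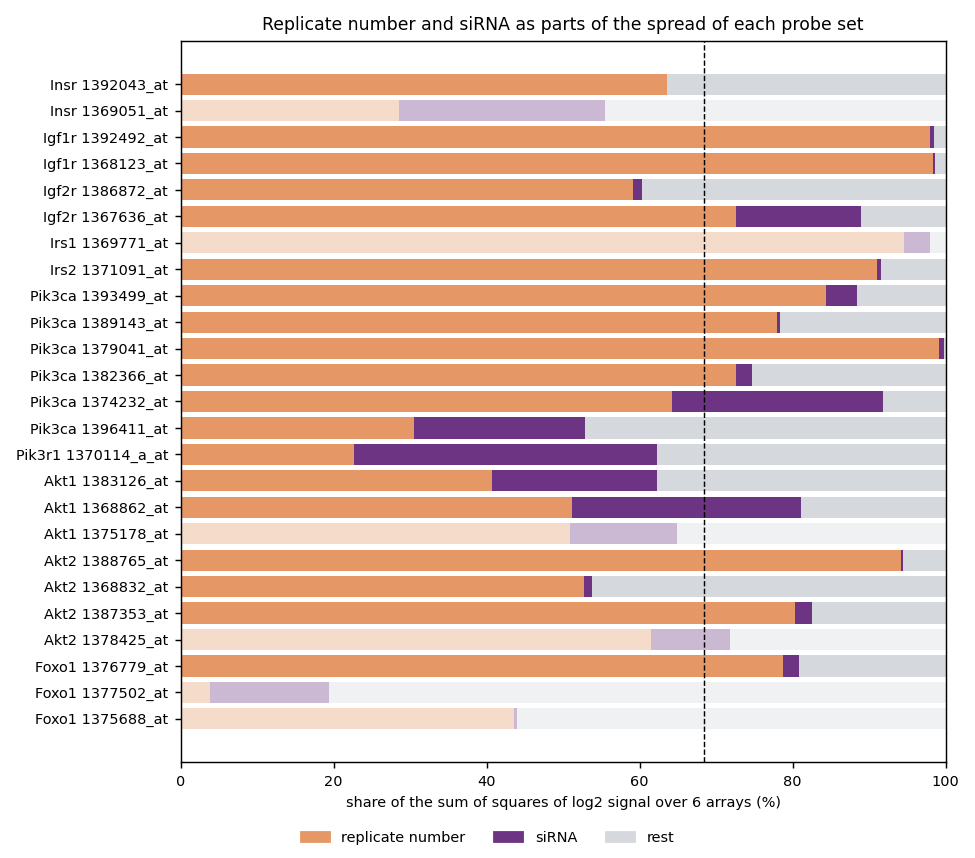
Share (%) of the sum of squares of log2 signal over 6 arrays that goes with replicate number, with siRNA and with the rest, for each of the 25 probe sets, with pale bars for the 6 not above background on all arrays. The dashed line is the median replicate share of all probe sets above background, 68.4%, and the siRNA part is the wider of both coloured parts in Pik3r1 among the full-colour bars.

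One order of replicates was common among the members. In 12 of the 19 probe sets above background (63.2%) the replicate 2 array was lowest in both groups, against 23.2% of all probe sets above background. These 12 come from 6 genes, Igf1r, Igf2r, Pik3ca, Akt1, Akt2 and Foxo1, and Pik3ca gave more of them than any other gene. For Akt1 and Akt2 only a dimmer probe set followed the order. The brightest of Akt2, 1388765_at, was highest in replicate 2 of both groups (169 and 174). The brightest of Akt1, 1383126_at, was highest in replicate 2 of the control cells (1058). The order was thus not shared by all probe sets of these genes. The order was noticed in the data and is given as a description. The replicate 2 arrays also had the lowest median signals over all probe sets, 31.2 in COUP-TFII depleted and 29.9 in control cells, where the other 4 arrays had 35.9 to 39.4. After quantile normalization, which makes the distribution of signals the same on all arrays, the count was again 12 of 19, against 19% of all. The ratio of the 3′ to the 5′ actin control, a sign of RNA integrity, was 2.88, 3.39 and 2.64 in COUP-TFII depleted cells and 3.003, 2.98 and 2.88 in control cells, so replicate 2 was highest in the former and not in the latter. The same ratio of GAPDH was 1.07, 1.04 and 1.05 against 0.974, 1.09 and 1.02, with replicate 2 lowest in the former and highest in the latter. The parts of array brightness and of RNA integrity in this order were not tested.

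The rest of the pathway was described by 10 lists of other genes, 111 in all, of which 95 had a probe set named by 1 symbol and the other 16 were not used here. On the brightest probe set of each gene the median log2 fold change over the 95 was 0.0017, beside -0.0031 over all probe sets, with 48 genes higher and 47 lower by mean. No gene had an adjusted p under 0.05, in the unpaired fit or with the block. At an unadjusted p up to 0.05 the unpaired fit gave 1 lower gene (1.05%), Pik3c3, against 1.34% of all probe sets. With the block there were 3 lower genes, Pik3c3, Rictor and Igf2, against 3.51% of all probe sets, and 1 higher gene, Cdkn1b, against 2.72%. The groups did not overlap for 6 of the 95 (6.32%), which is near the background of 6.74%. Of these, 2 were higher (Socs2 and Nagpa) and 4 lower (Sh2b2, Pik3c3, Ptprf and Tbc1d4). Over all 156 probe sets of these genes the groups did not overlap for 16 (10.3%), against 6.74% of all. Of the 156, 4 (2.56%) in the unpaired fit and 6 (3.85%) with the block had an unadjusted p up to 0.05, against 2.31% and 6.23% of all. Replicate number passed the F test for 10 of the 74 list genes above background (13.5%), against 19.7% of all probe sets above background.

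Pik3c3, the class III PI3-kinase of autophagy and endosomal sorting, read 75.2, 113 and 92.4 in COUP-TFII depleted cells and 129, 133 and 132 in control cells. The control arrays lay close together above all depleted arrays, and the difference was -0.51 on the log2 scale (standard error 0.21, limma adjusted p = 1, or 0.768 with the block). The study had listed this probe set on these same arrays, so its direction is not independent evidence. Rictor, which defines the mTOR complex that phosphorylates Akt, read 152, 48.2 and 195 against 201, 75.1 and 261. The groups overlap and replicate 2 was lowest in each, yet the signal was lower in all 3 pairs, by 0.41, 0.64 and 0.42 on the log2 scale, and the adjusted p with the block was 0.706 in limma. Rps6kb1, the S6 kinase downstream of Akt and mTOR, varied by replicate in the same way, with 229, 67.1 and 179 against 208, 65.4 and 220, and so did Pik3c2a, a class II PI3-kinase, with 234, 51.0 and 253 against 257, 68.6 and 247. These 2 were named after their values were seen, as list genes with a strong dependence on replicate.

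Among the ligands, Igf2 read 1168, 1487 and 1622 in COUP-TFII depleted cells and 1346, 1975 and 1747 in control cells. It was lower in 3 of 3 pairs, its mean log2 difference was -0.24 (standard error 0.19), and limma with the block gave an adjusted p of 0.788. The insulin gene Ins2 read 5713, 4415 and 8198 against 5539, 3230 and 7535, and Ins1 read 15306, 14386 and 13966 against 15843, 9490 and 13544. The log2 fold changes were 0.21 (standard error 0.33) for Ins2 and 0.20 (standard error 0.23) for Ins1. Same-numbered pairs differed by 0.04, 0.45 and 0.12 on the log2 scale for Ins2 and by -0.05, 0.60 and 0.04 for Ins1. The IGF binding proteins had a median log2 fold change of 0.09 over 8 genes, 3 of them dim in both groups, with 6 higher and 2 lower by mean and 0 at an unadjusted p up to 0.05 in either fit. Igfbp1, also a known FoxO target, read 50.1, 31.3 and 49.2 against 41.3, 21.8 and 34.8.

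The adaptors between receptors and PI3-kinase or Ras, 3 of them dim in both groups, had 5 genes higher and 11 lower by mean. On the brightest probe sets their median was -0.03, with 0 at an unadjusted p up to 0.05 in either fit. Among them Sh2b2, an SH2 adaptor of the insulin receptor, read 110, 95.1 and 113 against 121, 122 and 128 without overlap, and its log2 fold change was -0.23 (standard error 0.18). A dimmer probe set of the adaptor Crk, 1369912_at, read 88.6, 63.8 and 65.2 against 50.1, 28.0 and 40.8 without overlap, 0.90 higher on the log2 scale (standard error 0.32, limma adjusted p = 1, or 0.720 with the block). The other Crk probe sets gave 0.03 and 0.07. This probe set, also listed by the study, was named after its values were seen. The negative regulators, 3 of them dim in both groups, had 6 genes higher and 9 lower, with a median of -0.06. Here Socs2, a suppressor of cytokine signalling, read 49.3, 50.4 and 58.3 against 45.9, 39.8 and 43.4, and the receptor phosphatase Ptprf read 662, 586 and 665 against 774, 675 and 673, both without overlap. The study had listed the probe sets of Sh2b2 and Socs2 as well. The widest difference of any list gene was that of Socs1 in the same list, -1.82 (standard error 1.00), but its arrays ran from 2.30 to 34.3 and crossed the background level in both groups, and it was named after its values were seen.

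Akt substrates and effectors had 7 genes higher and 9 lower, with a median of -0.03. Foxo3, a relative of Foxo1, read 164, 164 and 210 against 181, 206 and 236, a log2 fold change of -0.21 (standard error 0.18). Foxo3 1376210_at and 1376229_at, dim in both groups, gave 0.91 and 0.54. Of the Rab regulator Tbc1d1, a dimmer probe set, 1393754_at, read 58.8, 47.99 and 64.8 against 128, 72.6 and 91.2 without overlap (limma adjusted p = 1, or 0.720 with the block), and the brightest one had a log2 fold change of -0.08. It too was named after its values were seen. The known FoxO target genes other than Insr and Irs2 had 10 genes higher and 4 lower by mean, with a median of 0.11. Of these genes 4 were dim in both groups, Fbxo32 and Pdk4 among the higher and Pck1 and Bcl6 among the lower. Cdkn1b, the cell cycle inhibitor p27, read 1643, 2138 and 1274 in COUP-TFII depleted cells and 1334, 1591 and 1198 in control cells. It was higher in 3 of 3 pairs, its mean log2 difference was 0.27 (standard error 0.21), and limma with the block gave an adjusted p of 0.777. A dimmer Cdkn1b probe set, 1369192_at, read 50.6, 77.1 and 79.3 against 59.1, 83.1 and 36.8. That probe set was lower in the first 2 pairs and higher in the third. Bcl2l11, the pro-apoptotic target Bim, read 226, 209 and 213 against 245, 315 and 217, a log2 fold change of -0.25 (standard error 0.17). Its other probe sets, 1370787_at and 1387338_s_at, were not above background on all arrays and gave 0.66 and 0.52. The 7 partners of Igf2r in mannose 6-phosphate sorting had a median of 0.02, with 5 genes higher and 2 lower. The other PI3-kinase subunits, the kinases that act with Akt and the 3 measured Ras and MAP kinase genes had medians of -0.03, -0.00080 and -0.04.

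**Figure D4:**
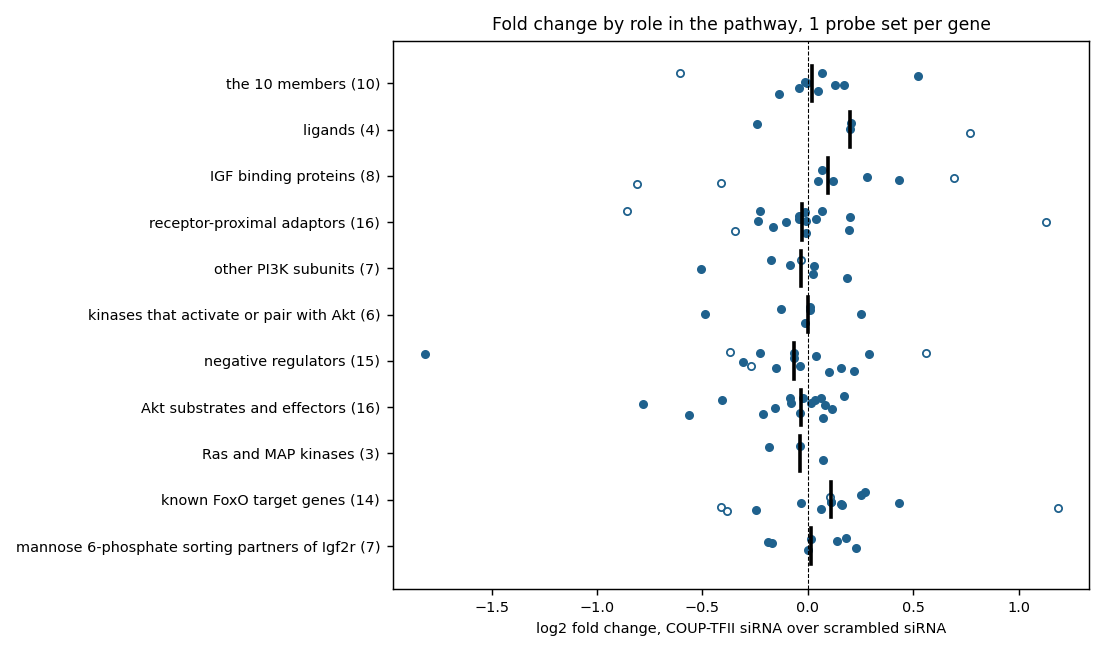
Difference in log2 signal, COUP-TFII depleted minus control, for the members and for the other pathway genes by role (points, brightest probe set of each gene, vertical scatter for display only; open points are dim in both groups) with the median of each list (black bar) and its gene count in brackets. List medians run from -0.06 for negative regulators to 0.20 for the 4 ligands, whose median was -0.065 without scrambled siRNA replicate 2.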

How the data were processed

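RNA of 6 samples was hybridised to 1-colour Affymetrix rat arrays. The authors deposited a linear intensity for each probe set, which MAS5 had corrected for background and scaled. The MAS5 version is not given in the sources used here. The deposited table has no detection calls, and 57 control probe sets of 31099 were left out. Before taking log2, any signal under 1 (1.85% to 5.49% of values on an array) became 1. limma 3.58.1 in R 4.3.3 (lmFit, eBayes with an intensity trend) compared the groups, unpaired because the study labels its own t-test so, with Benjamini-Hochberg adjustment over 31042 probe sets. The highest Bacillus control signal (20.7) marks background. A probe set is called dim where both group means lie at or below it. Gene symbols come from the platform annotation, in which 20826 probe sets have 1 symbol, 436 have several and 9780 have none, with RefSeq's GRCr8 table for updates.

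Replicate numbers in the labels are the same in both groups. Deviations from the group means correlated at 0.111, 0.231 and 0.163 for same-numbered arrays and from -0.146 to -0.0104 for others, so the numbers were taken to pair the arrays. The pairing thus comes from the data and not from a label.

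The members and lists were chosen with earlier results of these data known. All member probe sets are named, and of each list genes among the 3 of lowest unadjusted p at or above the median signal, with those past a stated threshold and those stated as named after their values were seen. Alternatives were quantile normalization, median centring, log2(signal + 16), a filter at the median signal, no intensity trend, the methods' t-test, the replicate block, leaving out each array or both replicate 2 arrays, and summarising a gene by the median of its probe sets. Added after seeing the data were the block with quantile normalization or with log2(signal + 16), and the F test of replicate number. The fits were tested on simulated data. The number of arrays limits the precision. matplotlib 3.10.9 under Python 3.11.15 drew the figures.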

Additional observations from a re-analysis of the deposited data

How the results depend on the processing

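No member probe set passed an adjusted p of 0.05 under any of the 16 alternatives, the lowest being 0.758. The replicate block, the t-test, the fit without an intensity trend and the filter leave every log2 fold change as it was. Adding the block to quantile normalization or to log2(signal + 16) likewise repeats the values without it. Of 394 member values recomputed over the alternatives 348 kept their direction and 46 turned, and part of the 348 was thus fixed in advance. Those of 8 probe sets never turned, which include Pik3r1, Akt1 1383126_at and 1368862_at, Igf2r 1367636_at and Pik3ca 1374232_at, yet with 1 array left out these 5 ran from 0.32 to 0.82, 0.036 to 0.24, 0.14 to 0.41, -0.29 to -0.0036 and 0.16 to 0.52. The rest of the 8 stayed lower, Pik3ca 1396411_at from -0.40 to -0.10, Insr 1369051_at from -0.81 to -0.17 and Akt2 1378425_at from -1.10 to -0.10. The Insr and Akt2 probe sets among them were not above background on all arrays. With quantile normalization, alone or with the replicate block, the log2 fold change was 0.0056 for Akt2 1388765_at and 0.022 for Insr 1392043_at. Without both replicate 2 arrays it was 0.0031 for Akt2 1388765_at, 0.099 for Foxo1 1377502_at, 0.14 for Insr 1392043_at and 0.021 for Irs2. With 1 array left out the log2 fold changes ran from -0.45 to 0.014 for Akt1 1375178_at, -0.20 to 0.14 for Akt2 1368832_at, -0.29 to 0.089 for Akt2 1387353_at, -0.082 to 0.074 for Akt2 1388765_at, -1.36 to 1.04 for Foxo1 1375688_at, -0.53 to 0.11 for Foxo1 1376779_at, -0.23 to 0.40 for Igf1r 1368123_at, -0.28 to 0.36 for Igf1r 1392492_at, -0.12 to 0.23 for Igf2r 1386872_at, -0.17 to 0.10 for Insr 1392043_at, -1.86 to 0.35 for Irs1 1369771_at, -0.21 to 0.19 for Irs2 1371091_at, -0.22 to 0.33 for Pik3ca 1379041_at, -0.16 to 0.26 for Pik3ca 1382366_at, -0.12 to 0.21 for Pik3ca 1389143_at, -0.13 to 0.46 for Pik3ca 1393499_at.

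Member probe sets at an unadjusted p up to 0.05 numbered 0 in the unpaired fit, 1 with the replicate block, the same number when log2(signal + 16) was added to it, 2 when quantile normalization was added to it, and 0 to 1 with 1 array left out. Over all probe sets the adjusted p was under 0.05 for 0 in the unpaired limma fit (717 at an unadjusted p up to 0.05), 1 by the methods' t-test, 5 with the replicate block, 2 with the block and log2(signal + 16) and 4 when quantile normalization was added to the block, and 0 with 1 array left out. Those at an unadjusted p up to 0.05 numbered 1933 with the block, 2038 with log2(signal + 16) added, 1981 with quantile normalization added, 180 under the filter at the median signal, and 640 to 932 with 1 array left out. The adjusted p of Nr2f2 1389554_at was 0.404 in the unpaired fit, 0.0185 with the block (log2 fold change -2.65), 0.0296 with log2(signal + 16) added (-2.16) and 0.0196 with quantile normalization added (-2.63). The block brought no member or list gene under an adjusted p of 0.05. The median over receptor-proximal adaptors was 0.077 without both replicate 2 arrays, -0.14 with the median over each gene's probe sets and -0.070 to 0.040 with 1 array left out. For Ras and MAP kinases it was -0.15 without both replicate 2 arrays and -0.18 to 0.10 with 1 array left out. Medians also changed sign with 1 array left out for ligands (-0.065 without scrambled siRNA replicate 2, to 0.36), other PI3-kinase subunits (-0.15 to 0.12), mannose 6-phosphate partners (-0.085 to 0.083), Akt substrates (-0.083 to 0.0093), kinases acting with Akt (-0.042 to 0.045) and negative regulators (-0.043 to 0.019), and not for the IGF binding proteins (0.053 to 0.18) and FoxO targets (0.056 to 0.18). The cause of these shifts was not tested. The median standard error of members above background was 0.29 unpaired and 0.12 with the block, and Irs1, Foxo1 1377502_at and 1375688_at and Akt2 1378425_at, all below background, gave no usable level.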
